A study of Mus musculus with 6 samples.

Results

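Translation initiation factors, the proteins that bring the small ribosomal subunit, the initiator transfer RNA and the messenger RNA together at a start codon, were followed as transcripts in cultured mouse colonic fibroblasts. Members were taken by name alone: every gene whose symbol starts with Eif and a digit from 1 to 6, without the Eif2ak kinases and without pseudogene symbols marked -ps. This gave 65 of the 38896 gene symbols in the table. The family was singled out, however, with the DSS and control values of these libraries already known. The values of that comparison are therefore a description, and the adjusted p-values beside them give each gene's place in a fit over all genes without supporting a statement about the family. Of the 65 members, 52 had enough counts to be tested. The other 13 were the helicase relative Eif4a3l1, Eif2c5, which the reference annotates as a long noncoding RNA, and 11 Eif1ad paralogs. Of these 13 genes, 10 had no count in any library after rounding and 3 had 1 count, and none of the 13 enters the counts of tested members below. Sums over all 65 members include them, and some of their promoters are among the windows searched for motifs. As members that passed the filter are by construction the expressed ones, counts over the 52 are not counts over the whole family.

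Cells were isolated from distal colon when the mice were 6 weeks old and were passaged 2 times. Cultures then spent 24 h in control medium or in inflammatory conditioned medium, and the libraries labelled DSS (dextran sulfate sodium, given to mice to induce colitis) were taken to be those in the inflammatory medium. Mice 1716, 1717 and 1718 each gave 1 control and 1 DSS library, so n = 3 in each group and the groups are paired by animal. Strain, sex, any allele carried by the mice and the making of the medium are not stated, and the labels file control and DSS under genotype. Levels are given in CPM, a gene's count relative to its library's total, after scaling by trimmed mean of M values (TMM), and each change is a log2 fold change (DSS over control) ± SE by edgeR's quasi-likelihood fit with the group as its only term. A gene is named as called, or as having risen or fallen, when its adjusted p lay under 0.05. Unless the block is named, this refers to the fit with the group alone, which leaves out the pairing. A fit with the mouse as a block uses the pairing, and its calls are named as such. A gene that was not called is not thereby shown to be unchanged, as small changes were mostly missed in simulated data.

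Initiation begins when eIF2, loaded with GTP and the initiator transfer RNA, joins the small subunit together with eIF1, eIF1A, eIF3 and eIF5. The eIF4F complex of the cap-binding protein eIF4E, the scaffold eIF4G and the helicase eIF4A brings in the messenger RNA, and eIF5B then joins the large subunit. Cells throttle the process at a pair of points: stress kinases phosphorylate eIF2 so that it blocks eIF2B, the factor that recharges eIF2 with GTP, and the 4E-binding proteins sequester eIF4E until mTORC1 phosphorylates them. Both points act on proteins, which were not measured here.

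Most initiation factor transcripts differed little between the media, and the differences leaned towards lower levels in DSS. The 65 members together took 0.485 to 0.541% of scaled counts in control and 0.438 to 0.495% in DSS, and these ranges overlap. In each mouse the DSS library was the lower one, with log2 ratios of the summed level of -0.15, -0.09 and -0.13 in mice 1716, 1717 and 1718. The median log2 fold change of the 52 tested members was -0.12, with a middle range (25th to 75th percentile) of -0.18 to -0.03, against a median of 0.01 and a middle range of -0.19 to 0.22 for all 19869 genes tested. The fitted value was below 0 for 44 of 52 members (84.6%), as it was for 48.6% of all genes and for 52.4% of the 10211 genes averaging 10 CPM or more. It lay within 0.25 of 0 for 44 members (84.6%), against 57.9% of all genes and 65.4% of those at 10 CPM or more. Levels are shares of a library, so a shift common to all messengers would not appear in them.

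By edgeR, 3 members fell (5.77% of the 52) and 1 rose (1.92%), against a background of 5.91% of all genes lower and 7.37% higher. The members that fell were Eif2s2, Eif3j1 and Eif5a2, and the member that rose was Eif4a2. With the mouse as a block, 8 members fell (15.4%, background 12.7%) and 1 rose (1.92%, background 12.3%). The 5 added by the block were Eif3a, Eif3c, Eif4a3, Eif4g2 and Eif4ebp1. Of the 10211 genes at 10 CPM or more, which hold 48 of the tested members and all of those called, 8.89% fell and 10.1% rose (19.0% together), and with the block 18.8% fell and 16.9% rose (35.7% together). The DSS libraries all lay below all control libraries for 18 of 52 members (34.6%, background 16.5%) and above them for 2 (3.85%, background 17.7%), against 22.4% and 20.7% of genes at 10 CPM or more. All mice were lower in DSS for 32 members (61.5%, background 28.5%, or 36.4% at 10 CPM or more) and all were higher for 5 (9.62%, background 28.4%). The median coefficient of variation of members was 5.56% among controls and 6.8% among DSS libraries. Among controls it was 10.3% for all genes tested, whose median level was lower (10.8 CPM, against 53.0 CPM for members). No value was computed for genes of like level, so steadiness of members beyond their level was not tested. In cultured cells measured in bulk, fewer cells expressing a gene and less RNA per cell cannot be told apart.

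**Figure D1:**
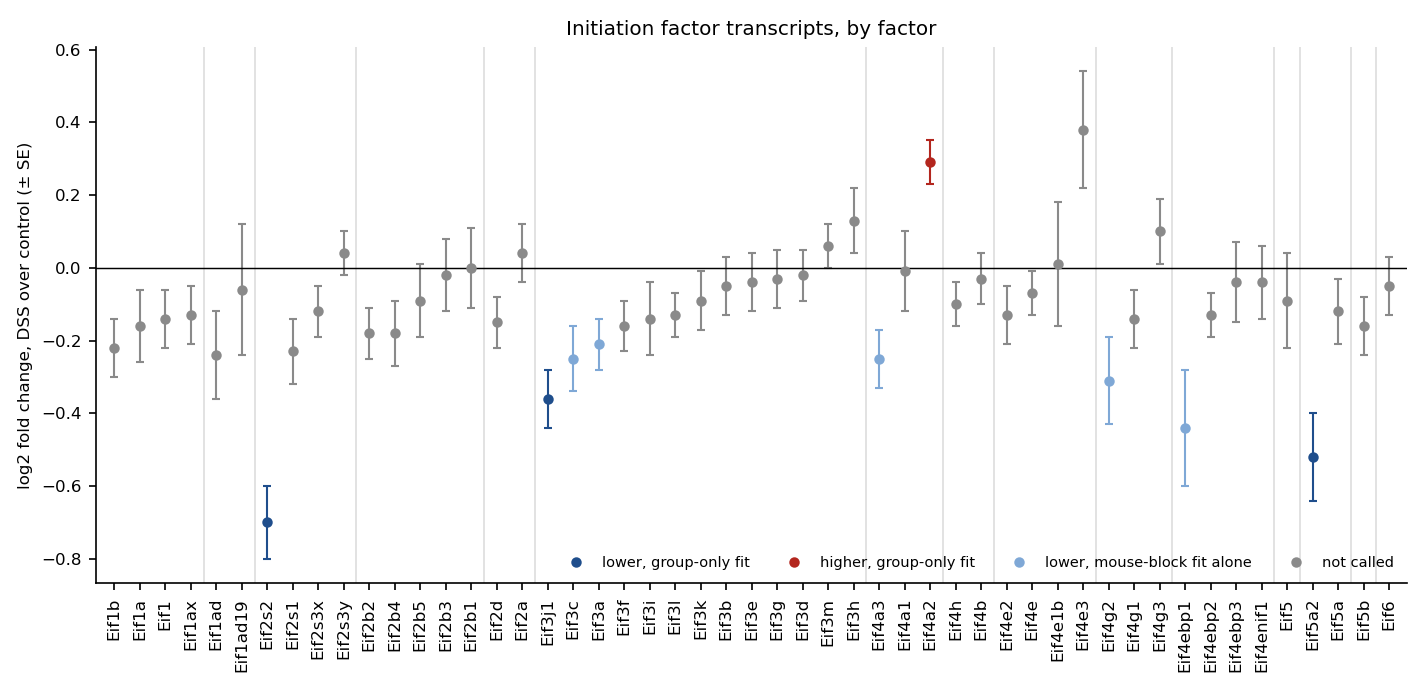
Log2 fold change of DSS over control (vertical axis, ± SE) for 51 tested members, grouped by factor between grey lines. Eif2s2, Eif3j1 and Eif5a2 (dark blue) fell and Eif4a2 (red) rose in the fit with the group alone, the members in light blue passed with all 6 libraries only once the mouse was a block, and grey members were called in neither of these fits; Eif3j2, at 0.586 CPM in control with an SE of 0.84, is not drawn.

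**Figure D2:**
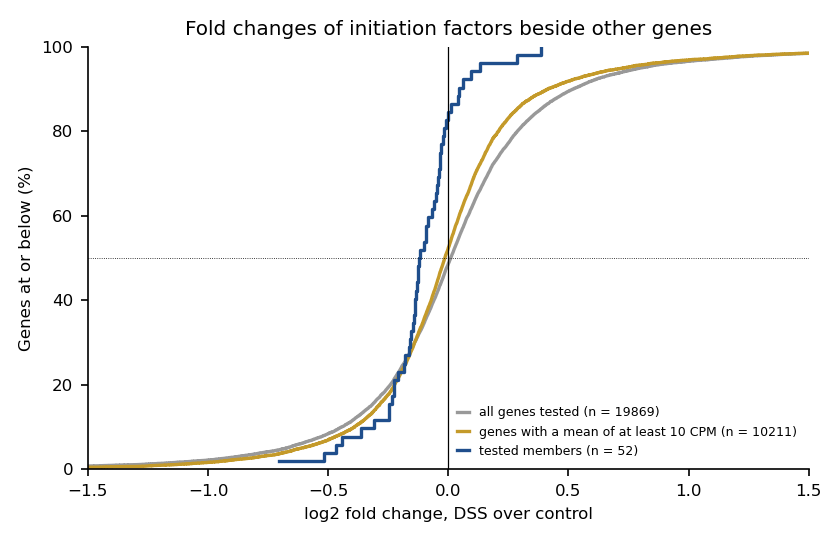
Cumulative percent of genes (vertical axis) at or below each log2 fold change of DSS over control (horizontal axis, drawn from -1.5 to 1.5) for all 19869 genes, the 10211 genes averaging 10 CPM or more, and the 52 tested members. The members' curve is steeper and crosses 50% at -0.12, left of the other curves at 0.01 and -0.01.

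The member with the largest change was Eif2s2, which encodes the beta subunit of eIF2, the subunit that contacts eIF5 and eIF2B. Eif2s2 (NCBI Gene 67204, chromosome 2, 154871410 to 154892906, GRCm38) stood at 80.1, 96.4 and 104 CPM in the controls of mice 1716, 1717 and 1718 and at 59.1, 56.7 and 56.3 CPM in their DSS libraries. All DSS libraries lay below all controls, and they differed from each other by less than the controls did. The mean went from 93.5 ± 12.2 to 57.4 ± 1.51 CPM (SD, n = 3), a log2 fold change of -0.70 ± 0.10 (edgeR adjusted p = 0.00513), which puts the fitted DSS level at 61.4% of control. Its size exceeds that of 89.2% of genes tested. The call was kept in 17 of 19 alternative fits and lost without mouse 1717 (adjusted p = 0.0863) and without mouse 1718 (0.058), where 4 libraries remained.

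The partner subunits of eIF2 moved less. Eif2s1, the alpha subunit that carries the regulatory phosphorylation site, was at 55.0, 51.5 and 52.7 CPM in control and 40.5, 45.5 and 50.2 CPM in DSS. The groups did not overlap, but the gene did not pass (log2 fold change -0.23 ± 0.09, edgeR adjusted p = 0.144). The gamma subunit, which binds GTP and the initiator transfer RNA, has one gene on each sex chromosome in mice. Eif2s3x was at 97.8, 105 and 106 CPM in control and 94.9, 90.2 and 98.7 CPM in DSS, with overlapping groups (-0.12 ± 0.07, adjusted p = 0.282). Eif2s3y, on chromosome Y, was present in all 6 libraries at 43.9 to 48.5 CPM and had a log2 fold change of 0.04 ± 0.06. Of its counts, 61.2 to 81.9% were assigned to predicted noncoding transcripts, so its coding level is uncertain.

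Per length of transcript, Eif2s2 was lower relative to Eif2s3x in DSS than in control. This restates the fall of Eif2s2, as the lengths are the same in both media. In CPM per kilobase, computed from library totals without TMM, Eif2s2 exceeded Eif2s3x in every control library, with ratios of 1.18, 1.31 and 1.41 in mice 1716, 1717 and 1718, and was below it in every DSS library, with ratios of 0.893, 0.902 and 0.819. Which gene is higher depends on the lengths used (2542 and 3647 bases): in plain CPM Eif2s2 was below Eif2s3x in every control too. The other gamma gene, Eif2s3y, is left out, as transcripts of known length held only 5.2% of its counts. The ratio of Eif2s2 to Eif2s1 was 1.95, 2.51 and 2.64 in control and 1.95, 1.67 and 1.5 in DSS, so that mouse 1716 showed the same ratio in both media. That of Eif2s3x to Eif2s1 was 1.66, 1.91 and 1.87 in control and 2.19, 1.85 and 1.84 in DSS, with overlapping groups. Summed over its 4 genes, eIF2 was at 279, 298.7 and 306 CPM in control and at 243.1, 238 and 250.3 CPM in DSS, the lowest share of control (82.8%) among the factors with a tested member.

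Promoter sequences from RefSeq (build GRCm38.p6), 250 bases before to 50 after a start site, were matched for 48 members in 60 windows, and those of the gamma and beta subunits and of Eif5a2 are printed because they contrast members of 1 complex and the members that fell. Windows were searched for CACGTG, the palindrome bound by MYC and its relatives, for TGATGNAA on both strands, the core of an element bound by ATF4 with its partners, and for a C followed by at least 4 pyrimidines beginning within 5 bases of the start site, the hallmark of messengers with a terminal oligopyrimidine tract. Capitals mark these matches in the sequences, written 5′ to 3′ on the gene's strand:
Eif2s2, chr2:154892857-154893156, minus strand: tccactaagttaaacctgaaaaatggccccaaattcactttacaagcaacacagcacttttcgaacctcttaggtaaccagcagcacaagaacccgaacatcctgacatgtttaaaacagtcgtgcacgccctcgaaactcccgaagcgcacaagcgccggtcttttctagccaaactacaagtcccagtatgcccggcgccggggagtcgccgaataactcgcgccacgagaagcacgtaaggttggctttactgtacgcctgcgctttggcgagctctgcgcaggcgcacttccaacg
Eif2s3x, chrX:94212602-94212901, minus strand: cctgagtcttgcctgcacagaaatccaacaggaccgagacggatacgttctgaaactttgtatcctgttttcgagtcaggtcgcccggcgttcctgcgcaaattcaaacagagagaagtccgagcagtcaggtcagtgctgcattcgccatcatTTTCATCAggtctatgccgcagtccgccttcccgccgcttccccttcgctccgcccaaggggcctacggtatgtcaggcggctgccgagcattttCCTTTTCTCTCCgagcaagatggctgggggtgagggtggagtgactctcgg
Eif5a2, chr3:28781027-28781326, plus strand: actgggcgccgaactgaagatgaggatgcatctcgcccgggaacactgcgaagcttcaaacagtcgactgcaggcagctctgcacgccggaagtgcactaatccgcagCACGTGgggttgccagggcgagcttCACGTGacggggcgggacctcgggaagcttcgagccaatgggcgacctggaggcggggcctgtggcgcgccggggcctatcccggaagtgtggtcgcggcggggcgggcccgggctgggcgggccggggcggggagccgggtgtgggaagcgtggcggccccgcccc
The window of Eif2s2 held none of the motifs. That of Eif2s3x held 12 pyrimidines counted from a C at position -1 (the T bases printed just before it extend the run), that of Eif2s3y held as many counted from a C at position 2, and that of Eif2s3x also held 1 match of TGATGNAA at position -96, and that of Eif5a2 held 2 matches of CACGTG. Across windows CACGTG was found in 12 of 60, against 7.15% of all 32851 promoter windows, TGATGNAA in 5 (8.33%, against 3.97%) and the pyrimidine run in 14 (23.3%, against 18.3%). Besides Eif2s3x, the windows with TGATGNAA were those of Eif1ad2, Eif1ad5, Eif1ad6 and Eif1ad13, which had no count in any library. Windows with the pyrimidine run included those of the untested Eif1ad13, Eif4a3l1 and Eif2c5. These shares thus do not describe the expressed members alone. The windows of Eif3j1 and Eif4a2 held none of the motifs. Several windows can belong to 1 gene, and a match describes letters only.

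The exchange factor eIF2B showed no called member among its 5 genes. Its summed level was 98.97, 99.51 and 108.7 CPM in control and 90.67, 97.8 and 97.88 CPM in DSS. Eif2b2, the beta subunit of the regulatory core, was at 24.8, 24.7 and 24.6 CPM in control and 21.3, 22.1 and 21.9 CPM in DSS. These groups did not overlap, yet the change of -0.18 ± 0.07 did not pass (edgeR adjusted p = 0.122). Eif2b5, the catalytic epsilon subunit, was at 34.9, 34.9 and 40.8 CPM in control and 31.3, 35.6 and 36.7 CPM in DSS, with overlapping groups. Eif2b1 and Eif2b3 had log2 fold changes of -0.00 ± 0.11 and -0.02 ± 0.10, and Eif2b4 one of -0.18 ± 0.09. Eif2d, which can deliver transfer RNA without eIF2, was at 41.4, 42.9 and 41.3 CPM in control and 40.2, 35.9 and 37.3 CPM in DSS, without overlap and without a call (-0.15 ± 0.07, edgeR adjusted p = 0.217), and Eif2a, of similar ability, had a log2 fold change of 0.04 ± 0.08.

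The genes of eIF1 and eIF1A, which keep the small subunit scanning and guard the choice of start codon, were not called. Eif1 was at 175, 204 and 207 CPM in control and 170, 186 and 176 CPM in DSS, with overlapping groups. Its paralog Eif1b was at 17.1, 16.8 and 17.5 CPM in control and 14.8, 14.1 and 15 CPM in DSS, without overlap (-0.22 ± 0.08, edgeR adjusted p = 0.107). Eif1a and Eif1ax had log2 fold changes of -0.16 ± 0.10 and -0.13 ± 0.08. All of these were lower in DSS in each mouse. Eif1ad, related to them in sequence, was at 13.0, 12.5 and 14 CPM in control and 13.0, 10.6 and 9.90 CPM in DSS, and its paralog Eif1ad19 was at 1.82 to 2.46 CPM over all libraries.

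The scaffold eIF3, the largest of the factors, showed 1 fall among its 14 genes with the group alone and 3 with the mouse as a block. Eif3j1 (NCBI Gene 78655, chromosome 2, 122028580 to 122053632), which encodes the loosely bound subunit that sits in the decoding site, was at 29.1, 32.5 and 33.4 CPM in control and 24.6, 23.7 and 25.6 CPM in DSS. The groups did not overlap. The log2 fold change was -0.36 ± 0.08 (edgeR adjusted p = 0.0257), and the call was lost in 9 of 19 alternative fits, with an adjusted p of up to 0.229 without mouse 1717. Its near copy Eif3j2 had 0 to 18 counts per library, few enough that reads shared between the copies would alter it most.

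The core subunits Eif3a and Eif3c had the next largest changes among eIF3 genes, leaving aside Eif3j2 with its few counts (log2 fold change -0.47 ± 0.84). Eif3a, which organises the complex, was at 205, 190 and 203 CPM in control and 166, 171 and 180 CPM in DSS. Eif3c was at 196, 213 and 242 CPM in control and 173, 184 and 193 CPM in DSS. Neither pair of groups overlapped, and both genes passed only with the mouse as a block (adjusted p = 0.0375 and 0.0226, against 0.0816 and 0.128 without it, all by edgeR). At the other end Eif3h and Eif3m were higher in DSS in each mouse, with log2 fold changes of 0.13 ± 0.09 and 0.06 ± 0.06, and neither passed. The remaining 9 subunits, namely Eif3b, Eif3d, Eif3e, Eif3f, Eif3g, Eif3i, Eif3k, Eif3l and Eif3j2, were not called in either fit. Summed, eIF3 was at 1115, 1132 and 1221 CPM in control and 996.3, 1085 and 1110 CPM in DSS, or 92.0% of control.

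Although eIF3 subunits occur in equal numbers in the complete complex, their messengers did not. Among the 13 subunits with a usable length and at least 1 CPM per kilobase, the control level per length ran from 63.7 for Eif3c to 5.81 for Eif3j1, an 11.0-fold range. Leaving Eif3j1 aside, the lowest was Eif3g at 30.3 ± 1.47. The low place of Eif3j1 rests on its length of 5413 bases, against 1101 for Eif3g. In plain CPM these genes were close in control, at 31.7 ± 2.28 and 33.6 ± 1.78. In control Eif3c (63.7 ± 6.02), Eif3k (62.5 ± 3.57), Eif3h (57.4 ± 4.03) and Eif3e (55.2 ± 2.66) were the highest in CPM per kilobase, and the libraries of neighbours in this order overlapped. Eif3i, Eif3l and Eif3b came next at 43.5 ± 2.92, 42.7 ± 1.5 and 41.3 ± 2.40. The median over subunits was 41.3 in control and 39.5 in DSS. In DSS Eif3h, at 63.6 ± 4.76, had the highest mean and Eif3c was at 54.4 ± 3.08 on this scale.

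**Figure D3:**
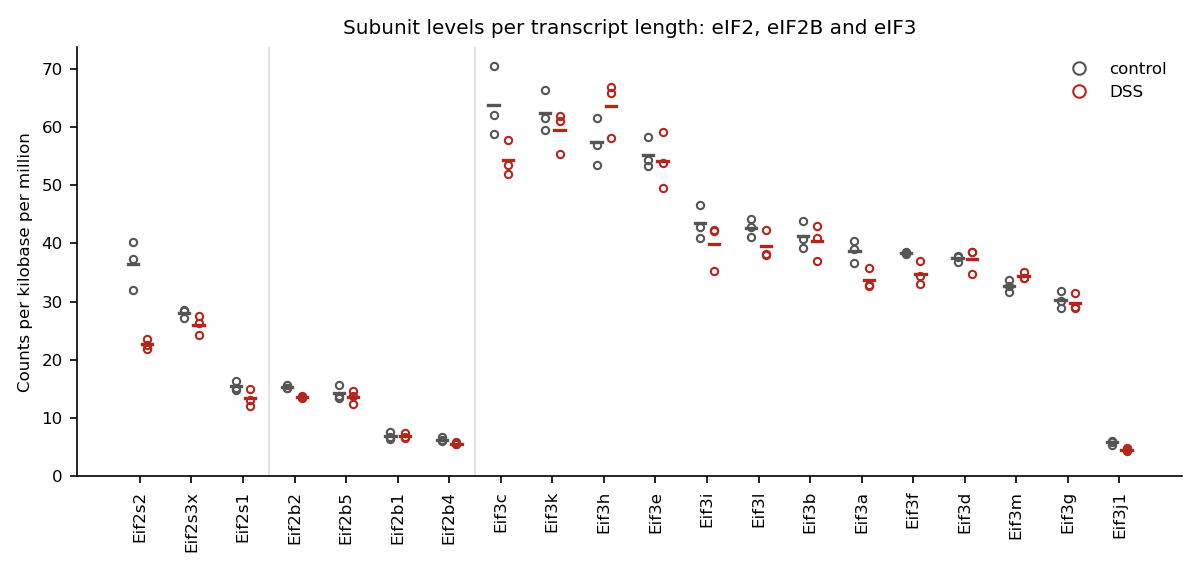
Level per transcript length (CPM per kilobase, vertical axis) of subunits of eIF2, eIF2B and eIF3 whose matched transcripts hold at least 80% of the gene's counts; circles are the 3 control (grey) and 3 DSS (red) libraries and bars are means. Eif2s2 passes from above Eif2s3x in control to below it in DSS, and Eif3j1 lies far under the other eIF3 subunits. Both placements depend on the transcript lengths used.

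The helicases of eIF4A, which unwind the leader of the messenger, did not move together. Eif4a2 (NCBI Gene 13682, chromosome 16, 23107468 to 23114132) was at 204, 200 and 189 CPM in control and 238, 244 and 240 CPM in DSS. All DSS libraries were above all controls. The mean went from 198 ± 7.79 to 241 ± 3.21 CPM (n = 3), a log2 fold change of 0.29 ± 0.06 (edgeR adjusted p = 0.0239). The call was lost in 9 of 19 alternative fits, with an adjusted p of up to 0.198 without mouse 1717, and the sign was kept in all. With curated transcripts only the change was 0.72 (edgeR adjusted p = 0.0458). Its close paralog Eif4a1 was at 279, 284 and 332 CPM in control and 261, 291 and 336 CPM in DSS, a log2 fold change of -0.01 ± 0.11. Eif4a3, the paralog that anchors the exon junction complex rather than eIF4F, was at 38.7, 35.3 and 40.4 CPM in control and 32.9, 30.2 and 33.3 CPM in DSS. Its change of -0.25 ± 0.08 passed with the block (edgeR adjusted p = 0.0208) and not without it (0.0868). Because the paralogs are similar in sequence, reads may be divided wrongly between Eif4a1 and Eif4a2.

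Within Eif4a2, counts were divided among 16 transcript models, and the higher level in DSS lay in curated coding models. The most abundant curated coding transcript was at 94.7, 84.9 and 62.1 CPM in control and 119, 135 and 115 CPM in DSS, without overlap. Its share of the gene's counts was 32.9 to 46.5% in control and 47.7 to 55.3% in DSS. For the 4 predicted coding models together, control cultures gave 79.1 ± 4.18 CPM and DSS cultures 75.6 ± 7.02 CPM. The 8 noncoding models were at 37.8 ± 4.90 and 35.0 ± 8.35 CPM, and in each mouse their share was lower in DSS (16.7 to 23.0% in control, 10.8 to 17.4% in DSS). In the DSS library of mouse 1716 another 21.9 CPM were assigned to other curated coding models, which were at 0 in all controls and in DSS 1718 and at 0.159 CPM in DSS 1717. Estimates of single transcripts came without an error of their own, so these shares were not tested.

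**Figure D4:**
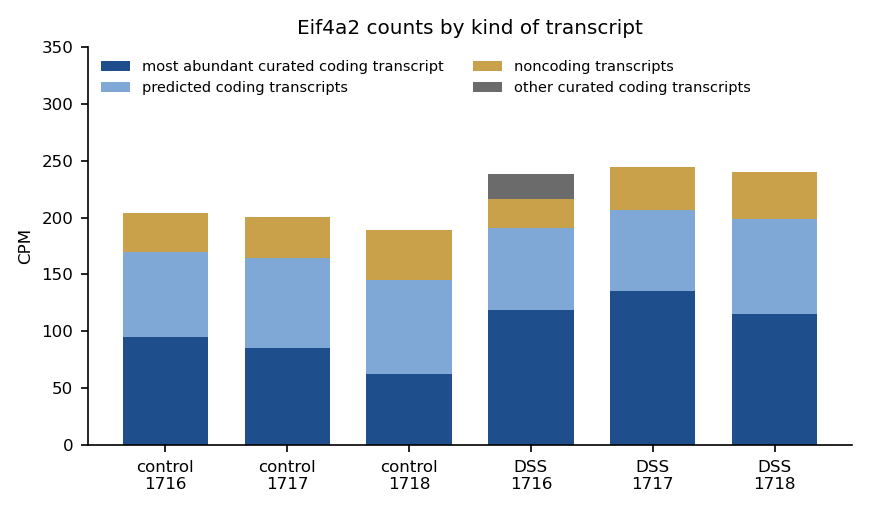
CPM of Eif4a2 in each library (vertical axis), stacked by kind of RefSeq transcript model. The dark blue part, the most abundant curated coding transcript, is 62.1 to 94.7 CPM in control and 115 to 135 CPM in DSS, while the predicted coding and noncoding parts overlap between groups.

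Cap binding and its scaffold showed no call in the fit with the group alone. Eif4e, the cap-binding protein, was at 64.5, 63.1 and 63.6 CPM in control and 62.7, 59.8 and 59.8 CPM in DSS. The groups did not overlap, but the change was only -0.07 ± 0.06 (edgeR adjusted p = 0.497). Eif4e3, a cap-binding relative, was at 16.6, 16.6 and 18.5 CPM in control and 25.3, 16.8 and 25.3 CPM in DSS. Mice 1716 and 1718 were higher in DSS and mouse 1717 was level (log2 ratio 0.02), so the gene did not pass (0.38 ± 0.16, adjusted p = 0.167). It passed in 2 of 19 alternative fits, with an adjusted p of up to 0.501, and not with the block (edgeR adjusted p = 0.0552). A fit that called it left out the DSS library of mouse 1717 (0.56, edgeR adjusted p = 0.0172). As that is the mouse without a difference, this pass adds no support. Eif4e2, which acts as a repressor on some messengers, had a log2 fold change of -0.13 ± 0.08. Eif4e1b, known from oocytes, was at 3.09 to 4.22 CPM, and 90.1 to 100% of its counts were on 1 noncoding transcript, so the coding messenger of Eif4e1b was near 0.

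Among the scaffolds Eif4g2 was the most abundant member in CPM. It encodes a relative of eIF4G that lacks the eIF4E-binding site. Eif4g2 was at 702, 739 and 861 CPM in control and 544, 634 and 682 CPM in DSS, without overlap, and its log2 ratio was -0.37, -0.22 and -0.34 in the 3 mice. The change of -0.31 ± 0.12 passed with the mouse as a block (edgeR adjusted p = 0.0101) and not without it (0.127). Eif4g1, the main scaffold, was at 373, 370 and 408 CPM in control and 318, 352 and 372 CPM in DSS, with overlapping groups (-0.14 ± 0.08). Eif4g3, its paralog, had a log2 fold change of 0.10 ± 0.09.

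Of the proteins that hold eIF4E back, Eif4ebp1 varied most between mice. It was at 54.1, 79.6 and 85.9 CPM in the controls of mice 1716, 1717 and 1718 and at 53.5, 54.8 and 53.0 CPM in DSS. The DSS libraries were level with each other and with the control of mouse 1716, so the groups overlapped. The log2 ratio was -0.02, -0.54 and -0.70 in these mice, and the change of -0.44 ± 0.16 did not pass (edgeR adjusted p = 0.113). It passed in 4 of 19 alternative fits, with an adjusted p of up to 0.421. Among these were the block (edgeR adjusted p = 0.0422) and the fit without the control of mouse 1716 (-0.62, edgeR adjusted p = 0.0064). That control was the one level with DSS, so the pass without it adds no support. Eif4ebp2 was at 73.4, 75.6 and 77.7 CPM in control and 65.6, 69.6 and 71.2 CPM in DSS, without overlap and without a call (-0.13 ± 0.06, adjusted p = 0.211). Eif4ebp3 and Eif4enif1, the latter a shuttle that carries eIF4E into the nucleus, had log2 fold changes of -0.04 ± 0.11 and -0.04 ± 0.10. Of the helpers of the helicase, Eif4b was at 252, 277 and 280 CPM in control and 249, 272 and 272 CPM in DSS, with overlap (-0.03 ± 0.07). Eif4h was at 169, 175 and 169 CPM in control and 158, 161 and 160 CPM in DSS, without overlap and without a call (-0.10 ± 0.06, edgeR adjusted p = 0.296).

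**Figure D5:**
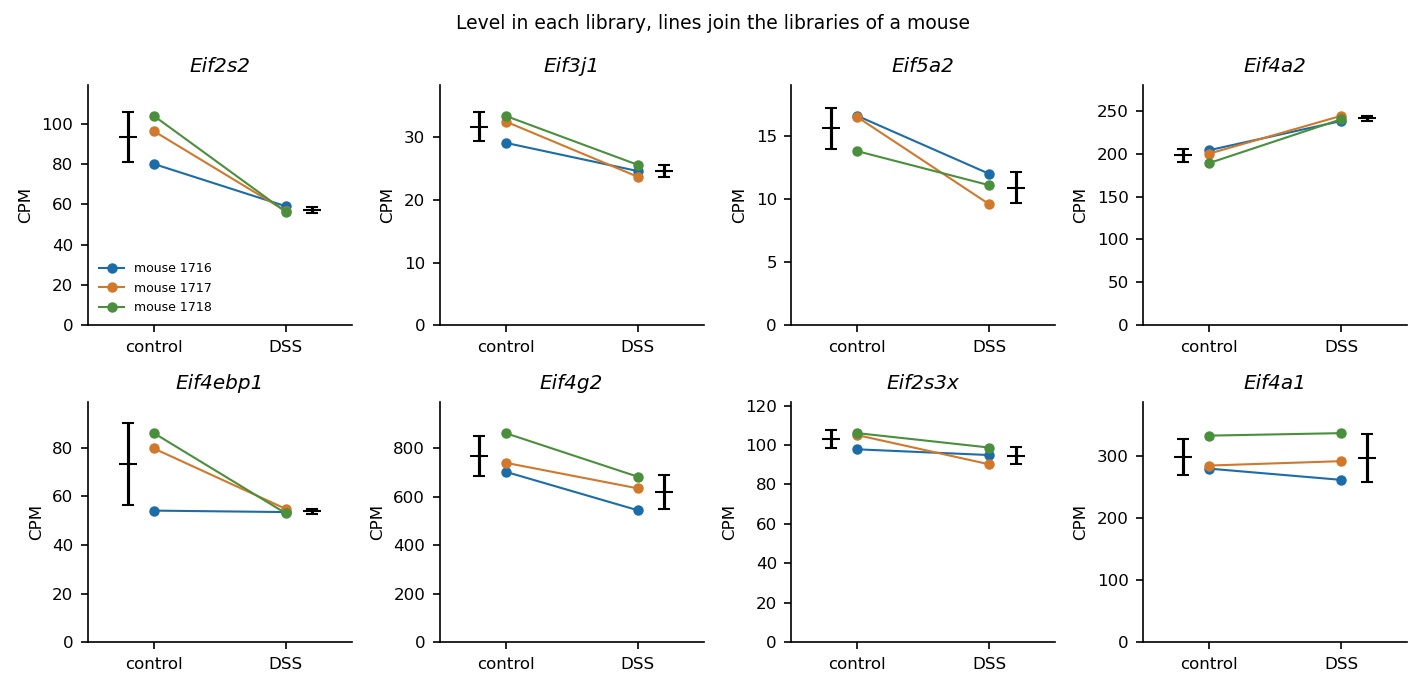
CPM (vertical axes, from 0) of 8 members in each library, with lines joining the control and DSS libraries of a mouse and black marks giving the mean ± SD of 3 libraries. Eif2s2, Eif3j1 and Eif5a2 are lower in DSS in every mouse and Eif4a2 is higher, Eif4ebp1 is level in mouse 1716 and lower in mice 1717 and 1718, and Eif2s3x and Eif4a1 overlap between groups.

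The late factors included 1 fall. Eif5a2 (NCBI Gene 208691, chromosome 3, 28781032 to 28798846) encodes the less widely expressed form of eIF5A, the hypusine-bearing protein that helps ribosomes past difficult peptide bonds. It was at 16.6, 16.5 and 13.8 CPM in control and 12.0, 9.59 and 11.1 CPM in DSS, without overlap. The log2 fold change was -0.52 ± 0.12 (edgeR adjusted p = 0.033), and the call was lost in 9 of 19 alternative fits, with an adjusted p of up to 0.257 without mouse 1717. The ubiquitous form Eif5a was at 174, 179 and 187 CPM in control and 147, 167 and 183 CPM in DSS, with overlapping groups (-0.12 ± 0.09, adjusted p = 0.434). Eif5, which makes eIF2 hydrolyse its GTP, was at 143, 149 and 188 CPM in control and 138, 140 and 171 CPM in DSS. Eif5 thus differed more between mice than between media (-0.09 ± 0.13). Eif5b, which joins the subunits, was at 66.3, 62.3 and 67.9 CPM in control and 54.8, 57.8 and 63.0 CPM in DSS (-0.16 ± 0.08, adjusted p = 0.207). Eif6, which keeps the large subunit from joining too early, was at 48.7, 47.3 and 52.6 CPM in control and 43.3, 49.2 and 51.0 CPM in DSS (-0.05 ± 0.08).

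Genes around the factors were counted from lists chosen with earlier results of these data known. Of 16 genes of the eIF2 kinases and the stress response they start, 6 fell and 0 rose by edgeR (median -0.19, against 0.01 over all genes and a background of 5.91% lower and 7.37% higher). At an unadjusted p under 0.05 there were 8 lower and 1 higher (13.8% and 14.7% of all genes), and DESeq2 called 7 lower and 0 higher (6.53% and 7.17% of all genes). The fallen genes were the transcription factor Atf4, its relative Atf5, the pseudokinase Trib3, the asparagine synthetase Asns, the glutathione-degrading Chac1 and the mTORC1 restrainer Sesn2. Asns was at 66.7, 120 and 144 CPM in the controls of mice 1716, 1717 and 1718 and 34.1, 29.4 and 27.5 CPM in DSS (edgeR adjusted p = 0.00509). Atf5 was at 94.8, 119 and 182 CPM in control and 41.5, 35.9 and 39.8 CPM in DSS (adjusted p = 0.00367). Trib3 was at 10.4, 26.6 and 47.3 CPM in control and 3.31, 3.41 and 3.87 CPM in DSS (edgeR adjusted p = 0.0106). In Eif4ebp1, Eif2s2, Asns, Atf5 and Trib3, a set put together after their values were seen, the control of mouse 1716 was the lowest control and that of mouse 1718 the highest, with DSS libraries close to each other. This order of controls was not particular to them: Eif1, Eif3c, Eif3j1, Eif4g2 and Eef1a1 were among other genes that had it. Its share over all genes was not counted. The kinases themselves were not called: Eif2ak4, which senses uncharged transfer RNA, had a log2 fold change of 0.24 ± 0.07 (adjusted p = 0.0658), Eif2ak2 one of 0.31 ± 0.14, Eif2ak1 one of 0.22 ± 0.10 and Eif2ak3 one of -0.27 ± 0.11. With the block Eif2ak4 (0.0198) and Eif2ak2 (0.0312) passed as higher, and Eif2ak3 (0.0226) and the stress-induced Ddit3 (0.0343) as lower.

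Of 16 genes that control eIF4F and mTORC1, 2 fell and 0 rose by edgeR (median 0.05, background 5.91% and 7.37%). By edgeR 3 were lower and 3 higher at an unadjusted p under 0.05 (13.8% and 14.7% of all genes). DESeq2 called 3 lower and 0 higher (6.53% and 7.17% of all genes). With the mouse as a block 3 fell and 2 rose, against 12.7% and 12.3% of all genes. The block added Deptor, an inhibitor of mTOR, as lower (-0.52 ± 0.15 with the group alone, edgeR adjusted p = 0.0561, and 0.00251 with the block), and Rptor, the scaffold of mTORC1 (0.046), and Tsc1, which restrains Rheb (0.0394), as higher. The genes that fell with the group alone were Ddit4, an inhibitor of mTORC1, at 145, 168 and 169 CPM in control and 97.1, 121 and 111 CPM in DSS (edgeR adjusted p = 0.0134), and Rheb, the GTPase that activates mTORC1, at 54.3, 66.2 and 60.9 CPM against 49.4, 49.6 and 44.9 CPM (0.0496). Of 11 partners in initiation outside the Eif names, 0 rose and 0 fell in the edgeR fit with the group alone (background 7.37% and 5.91%), and with the block 1 rose and 3 fell (background 12.3% and 12.7%). At an unadjusted p under 0.05 there were 1 higher and 4 lower (14.7% and 13.8% of all genes), and DESeq2 called 1 higher and 0 lower (7.17% and 6.53%). The smallest p in that list belonged to Denr and Mcts1, which together recycle small subunits and restart initiation. Denr was at 22.7, 25.6 and 26.4 CPM in control and 31.6, 41.4 and 30.2 CPM in DSS (0.47 ± 0.13, edgeR adjusted p = 0.0596), and Mcts1 was at 14.2, 14.6 and 14.8 CPM against 10.7, 11.1 and 12.9 CPM (-0.33 ± 0.10, adjusted p = 0.0741). The groups did not overlap in either, and the partners lay on opposite sides. Of 9 elongation and termination genes, 0 rose and 0 fell by edgeR (background 7.37% and 5.91%) and by DESeq2 (7.17% and 6.53%). By edgeR 3 were lower at an unadjusted p under 0.05 (13.8% of all genes), and 1 fell under the block (12.7% of all genes). Eef1g was at 263, 272 and 286 CPM in control and 215, 243 and 238 CPM in DSS (-0.24 ± 0.07, edgeR adjusted p = 0.0784). Eef2k, the kinase that slows elongation, was at 28.3, 36.9 and 37.2 CPM against 27.4, 28.8 and 23.6 CPM (-0.36 ± 0.13, edgeR adjusted p = 0.116).

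Libraries held 17293680 to 19482938 estimated counts. Fibroblast markers were abundant in all (26900 to 33000 CPM summed over 7 genes in control and 16600 to 18900 CPM in DSS), among which Col1a1, Col1a2 and Vim fell and Pdgfra rose by edgeR. The 8 leukocyte markers summed to 1690 to 2510 CPM in control and 1100 to 1860 CPM in DSS, most of them Lyz2 and Cd14, while Cd3e of T cells was at or under 0.0571 CPM. Of these markers 1 rose (Cd68) and 1 fell (Lyz2). The 5 epithelial markers summed to 1.38 to 1.70 CPM in control and 1.14 to 1.70 CPM in DSS, with 4 under 1 CPM in every library. The 4 endothelial markers summed to 6.94 to 16.4 CPM in control and 4.95 to 8.74 CPM in DSS. The 3 smooth muscle markers summed to 1170 to 1250 CPM in control and 920 to 1030 CPM in DSS (Myh11 rose and Actg2 fell), and the 3 of enteric glia to 76.2 to 244 CPM and 55.2 to 231 CPM, the latter varying more between mice than between media. The part of these cells in the levels of initiation factors was not tested.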

How the data were processed

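Strand-aware libraries were made from total RNA of 6 fibroblast cultures after removal of ribosomal RNA, per the labels' protocols. The authors deposited estimated counts for each of 120299 RefSeq transcripts, 1 column per library and unscaled. Per the submitters' processing notes the tool was kallisto and the builds GRCm38 and mm10; neither its version nor its settings is stated. Reads of near-identical genes or transcripts are shared out by likelihood, so single transcripts and close paralogs are uncertain.

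Estimated counts were summed per symbol and rounded. Genes passing edgeR's filterByExpr (minimum count 10, minimum total 15) were scaled by TMM and compared by the quasi-likelihood test with the group as the only term, with Benjamini-Hochberg adjustment over 19869 genes at 0.05. The SE is the log2 fold change over the square root of F. Alternatives were the mouse as a block, DESeq2, limma-voom, other size factors, no filter, curated transcripts only, no ribosomal RNA rows, and each library or mouse left out. The fits were tested on simulated data with 50 genes changed at each size. With the group alone edgeR recovered 0% of genes changed 1.25-fold, 20% at 1.5-fold and 74% at 2-fold. With the block it recovered 12%, 66% and 78%. The simulated data held far fewer changed genes than were called here, so these percentages do not carry over exactly. The same mice gave both groups. Deviations from group means correlated across genes with r = 0.35, 0.21 and 0.46 within mice 1716, 1717 and 1718, against -0.36 to 0.02 between mice. In each group a gene's deviations sum to 0, so the values between mice are not independent of those within mice. Chi-square per degree of freedom between libraries of a group was 9.71 to 22.2, so none was a duplicate. Whether cultures of a group differ beyond the mouse is not stated.

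Lengths came from GENCODE M21 transcripts matched by RefSeq accession, used only where they held at least 80% of a gene's counts. Where an accession matched several GENCODE transcripts, the longest was taken. The members and lists were chosen with earlier results of these data known. Genes given by library were the called members, the most abundant and the most changed member of each factor (mean of at least 5 CPM), a panel of 13 genes, and the 2 to 4 genes of smallest p in each list. Some subunits beside these (Eif3a, Eif4a3 and other members named with the block) were chosen after their values were seen. Fits used edgeR 4.0.16, DESeq2 1.42.0 and limma 3.58.1 under R 4.3.3. Tables and figures used pandas 2.3.3 and matplotlib 3.10.9 under Python 3.11.15.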

Additional observations from a re-analysis of the deposited data

How the results depend on the processing

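With the mouse as a block, 8 members fell and 1 rose, and 2518 of all genes fell and 2447 rose, in place of 3, 1, 1174 and 1465. With curated transcripts only, 1 member fell (Eif3j1 and Eif5a2 were no longer called), Eif4a2 moved from 0.29 to 0.72, and 666 genes fell and 842 rose, with a median of -0.10 over the members. Size factors as in DESeq2, DESeq2, limma-voom, no filter and no ribosomal RNA rows each called the same 4 members. In 9 fits without the block, each omitting 1 library or 1 mouse, 0 to 3 members fell and 0 to 1 rose, the median over members was -0.14 to -0.08, and 185 to 1108 genes fell and 378 to 1310 rose. These fits had fewer samples, down to 4 libraries. With the block and a mouse left out, 2 to 7 members fell and 0 to 2 rose, the median was -0.13 to -0.10 (-0.11 without mouse 1718), and 1422 to 2375 genes fell (1810 without mouse 1717) and 1357 to 2304 rose. Without mouse 1717, and without mouse 1718, edgeR called 0 members, with 7 and 6 at an unadjusted p under 0.05, where it called 3.26% and 3.30% of all genes. No named member changed sign while called. The block changed no other call among the named members than those given beside their values. Genes with few counts limit the precision, and intervals of depth cover counting error only.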
